A study of Rattus norvegicus with 30 samples.

Results

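The insulin-like growth factor axis was described here by 10 genes, the hormone gene Igf1, the receptor genes Igf1r, Igf2r, Insr and Ghr, and the binding protein genes Igfbp3, Igfbp4, Igfbp5, Igfbp6 and Igfbp7, in hearts of 30 untreated Fischer 344 rats. Members were found by gene symbol in the normalised expression tables of the 3 ages. Of the 10 symbols, 9 had rows, out of 24752 names on the arrays, and they took 16 of 27408 rows at 8 weeks, 16 of 27383 at 21 weeks and 16 of 26553 at 78 weeks. Igfbp7 had no row under its symbol, and its row was found under a probe name through the gene identifier, which gave 17 rows per table and 23 probes in all. Each of the 6 groups held 5 rats of one sex at one age, namely females and males of 8 weeks (young), 21 weeks (adult) and 78 weeks (old), of one inbred strain with no transgene and no treatment. Total RNA of powdered whole heart from each rat was hybridised to 1 array in 1 colour, so the study asked which genes differ between the sexes at each age.

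IGF1 is a growth factor made by liver and many other tissues, in part under the control of growth hormone acting on its receptor, Ghr. It signals through the IGF1 receptor, a tyrosine kinase that resembles the insulin receptor, while the IGF2 receptor mainly takes up IGF2 and lysosomal enzymes. Secreted binding proteins hold the hormone in blood and tissue and set how much of it reaches the receptor, and in the heart the axis is known for its part in growth of the muscle.

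The probes were 60-base oligonucleotides, and 6 of them are shown because the results below turn on them or on the strand they read. Sequences and positions (rat build rn3) are those listed in the scanner output. The capitals in the Igf1 probe mark an ATG, a start codon of the Igf1 leader peptide, and that probe joins bases from separate exons.
Igf1, chr7:24552241-24557334, plus strand: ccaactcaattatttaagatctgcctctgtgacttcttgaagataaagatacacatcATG
Igf1r, chr1:123067493-123067552, plus strand: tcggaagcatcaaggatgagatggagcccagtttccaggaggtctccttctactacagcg
Ghr, chr2:52452463-52452522, minus strand: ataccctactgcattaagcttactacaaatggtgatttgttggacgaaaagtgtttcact
Igfbp3, chr14:87980756-87981650, minus strand: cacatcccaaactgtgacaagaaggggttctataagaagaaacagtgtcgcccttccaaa
Igfbp3, named AI009405, chr14:87981664-87981723, plus strand: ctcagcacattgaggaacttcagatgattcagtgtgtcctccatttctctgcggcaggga
Igfbp6, chr7:140964859-140964918, plus strand: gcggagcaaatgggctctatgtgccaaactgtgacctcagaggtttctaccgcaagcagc

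The 23 probes did not all measure the same thing. The scanner software called 13 of them well above background on all 30 arrays and 3 on none. On the strand opposite to the gene's mRNA probes lay 4 probes, 3 of them named Igfbp3 and 1 named Igf2r, and they were well above background on between 0 and 26 arrays. Of the Igfbp3 group, AI009405 passed on 16 arrays, AI713966 on 7 and BM986651 on 0, and the Igf2r probe AI501179 passed on 26. The AI713966 probe is the reverse complement of the brightest Igfbp3 probe over 44 bases. Below, a gene is described by its lead probe, the one well above background on the most arrays and, among ties, the brightest. Levels of different probes are not compared with each other, since signal differs with the probe.

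**Figure D1:**
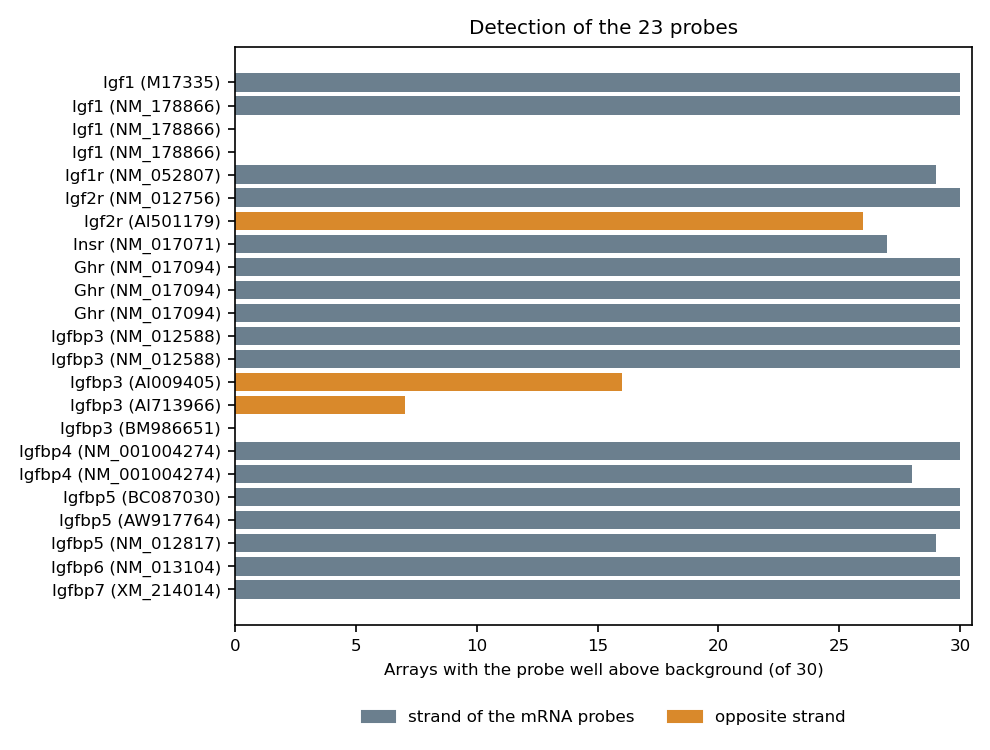
Number of the 30 arrays (x axis) on which each of the 23 probes of the 10 genes (y axis) was well above background. Blue bars are probes on the strand of the mRNA and orange bars probes on the opposite strand. The 3 probes at 0 arrays show no bar, namely BM986651 on the opposite strand and both dim Igf1 probes on the strand of the mRNA, while 13 probes reach 30.

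Across the series, between 17223 and 24342 of 45018 spots per array were well above background, with the lowest number on male replicate 2 at 21 weeks. All 7 cardiomyocyte markers were well above background on at least 15 arrays, as were 7 of 7 fibroblast and 5 of 5 endothelial markers with probes, whereas 1 of 4 skeletal muscle markers was. The Y-linked genes Ddx3y and Eif2s3y followed the sex labels in all 20 rats of 8 and 21 weeks. At 78 weeks they went against the label on 2 arrays of one slide: the array labelled female replicate 2 had Eif2s3y at 1.36 (log2 over the array's 75th percentile) and the array labelled male replicate 3 had it at -5.60. The counts and the differences of sex at 78 weeks are therefore also given without this pair, with 4 rats per sex. Females lay at array positions 2 and 4 and males at 1 and 3 of each slide, so sex and position cannot be told apart. By the study's methods the sexes of one age were processed in one batch and the ages in different batches, so that age and batch cannot be told apart in any comparison of ages below.

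Igf1 had lower signal in female than in male hearts at all 3 ages, by 1.30-fold in its lead probe when the ages were averaged. A pair of Igf1 probes was well above background on all 30 arrays: the lead probe far downstream in the gene (chr7:24624986-24625045, plus strand) and the upstream probe printed above. The values below are log2 signal over the array's 75th percentile. At 8 weeks the lead probe read 5.32, 5.16, 5.36, 5.10 and 5.28 in females and 5.69, 5.60, 5.77, 5.44 and 5.54 in males. At 21 weeks it read 4.78, 4.82, 5.08, 4.91 and 5.11 in females and 5.49, 5.29, 5.47, 5.28 and 5.12 in males. Every female lay below every male at both ages, as was so for 0.573% of all probes at 8 weeks and 1.38% at 21 weeks. At 78 weeks the females read 5.29, 5.44, 5.18, 4.91 and 5.31 and the males 5.58, 5.66, 5.14, 5.77 and 5.84. The overlap at that age came from the arrays labelled female replicate 2 (5.44) and male replicate 3 (5.14), the pair whose Y-linked genes went against the label. Without them the females ranged from 4.91 to 5.31 and the males from 5.58 to 5.84, with no overlap, as was so in this direction for 2.45% of all probes, and the difference was -0.54 (limma's adjusted p = 0.0526).

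The upstream Igf1 probe followed the same direction with more spread. At 8 weeks it read 1.5, 0.70, 1.29, 1.45 and 1.44 in females and 1.80, 1.60, 2.01, 1.60 and 1.60 in males, with no overlap. At 21 weeks the females ranged from 0.77 to 1.20 and the males from 1.14 to 1.93. At 78 weeks the females ranged from 0.70 to 1.25 and the males from 1.08 to 1.98, and without the pair at odds with their labels the males began at 1.38 and the difference was -0.59 (limma's adjusted p = 0.247).

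**Figure D2:**
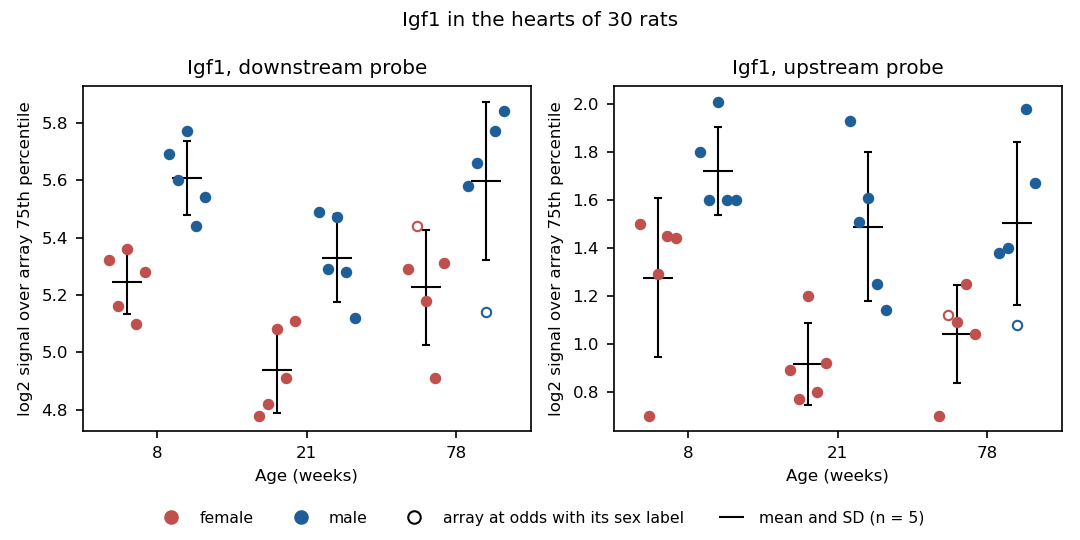
Log2 signal over the array's 75th percentile (y axis) of both bright Igf1 probes, the downstream lead probe and the upstream probe, in each of the 30 rats by age and sex (x axis). Points are rats and open points are the 2 arrays of 78 weeks whose Y-linked genes went against the sex label. Females lie below males in the lead probe at 8 and 21 weeks without overlap, and at 78 weeks the open points make the overlap.

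In the expression tables the sexes were compared by limma's moderated test of 5 against 5 rats, adjusted over all rows of the age. The upstream Igf1 probe has a row of its own (M17335), with a difference of female minus male of -0.46 (SE 0.16) at 8 weeks, -0.59 (SE 0.17) at 21 weeks and -0.48 (SE 0.17) at 78 weeks, that is 1.37-fold, 1.5-fold and 1.40-fold higher in males. None passed the adjusted threshold of 0.05 (limma's adjusted p = 0.769, 0.271 and 0.856), although the exact two-sided permutation p was 0.00794 at 8 weeks, the smallest that 5 against 5 allows, 0.0159 at 21 weeks and 0.0238 at 78 weeks. Without female replicate 2 of 8 weeks, the rat at 0.70, the difference at that age was -0.30 in the scanner values. At 8 weeks 0.85% of all rows had every female below every male. The lead probe has no row of its own, because the second Igf1 row (NM_178866) averages 12 spots of 3 probes and 11 of those spots come from probes that the scanner never called above background here, so no fold is given for that row.

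When each probe was tested alone in a fit of all 6 groups, the lead Igf1 probe differed between the sexes by -0.36 (SE 0.12) at 8 weeks, -0.39 at 21 weeks and -0.37 at 78 weeks. The mean of these 3 differences, a summary chosen after the values were seen, was -0.37 (SE 0.07), or 1.30-fold higher in males, with limma's adjusted p = 0.0112. For the upstream probe the mean was -0.49 (SE 0.10), or 1.41-fold, with limma's adjusted p = 0.0173. Of all 41012 probes, 0.449% passed that threshold. Without the pair of arrays at odds with their labels the means were -0.43 and -0.54, with limma's adjusted p = 0.000464 and 0.00755. Females were below males in 9 of 9 comparisons of the sexes within a slide and age, the slide of the odd pair included. The differences ran from -0.69 to -0.01 in the lead probe and from -0.89 to -0.14 in the upstream probe. Where every female lay below every male the sign within a slide was already fixed, so those comparisons add nothing. This was so in the lead probe at 8 and 21 weeks and in the upstream probe at 8 weeks. At 78 weeks the lead probe differed within slides by -0.08, -0.29 and -0.69. The -0.01 came from 1 rat of each sex at 21 weeks, and the share of all probes with such a pattern was not counted. Both calls were lost, with the direction kept, after normexp background correction (limma's adjusted p = 0.961 in either probe) and after scaling to the array median (0.0912 and 0.0975). These p-values measure only the spread between these rats, and in RNA of a whole organ fewer cells of a type and less RNA per cell cannot be told apart. Of the 7 fibroblast markers, 0 passed for the mean sex difference (median -0.08), and their summed level, in units of each array's 75th percentile, ran from 462 to 528 in females and 486 to 577 in males at 8 weeks, from 276 to 368 and 295 to 372 at 21 weeks, and from 232 to 362 and 299 to 394 at 78 weeks. Of the 4 cell division markers with probes, 2 were lower in females (median -0.39). Their part in the Igf1 difference was not tested.

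Over all 17 rows of the axis, 0 passed the adjusted threshold at 8, 21 or 78 weeks, with smallest limma adjusted p of 0.690, 0.265 and 0.856. The background of adjusted calls was 0.102% of rows at 8 weeks, 0.0511% at 21 weeks and 0.0% at 78 weeks, where 0 of 26553 rows passed by limma and 1501 had an unadjusted p under 0.05. At an unadjusted p under 0.05 there were 2 rows at 8 weeks, both higher in males (background 5.74% in either direction and 3.52% higher in males), 5 rows at 21 weeks, 4 of them higher in females and 1 in males (15.9%, of which 6.19% higher in females and 9.67% in males), and 2 rows at 78 weeks, both higher in males (5.65%, of which 3.68% higher in males). Without the pair at odds with their labels 0 of the 17 rows passed at 78 weeks, with a smallest limma adjusted p of 0.431, where 9 of 26553 rows did (0.0339%). At an unadjusted p under 0.05 there were then 3 rows, all higher in males, where 752 of all rows were higher in females and 1479 in males. These 3 were the Igf1 row M17335 (-0.61) and the Igfbp5 rows BC087030 (-0.45) and NM_012817 (-0.72). The median difference over the 17 rows was -0.08, 0.10 and -0.09, beside -0.00, -0.14 and -0.00 over all rows. The rows higher in females numbered 7, 11 and 6 at the 3 ages.

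**Figure D3:**
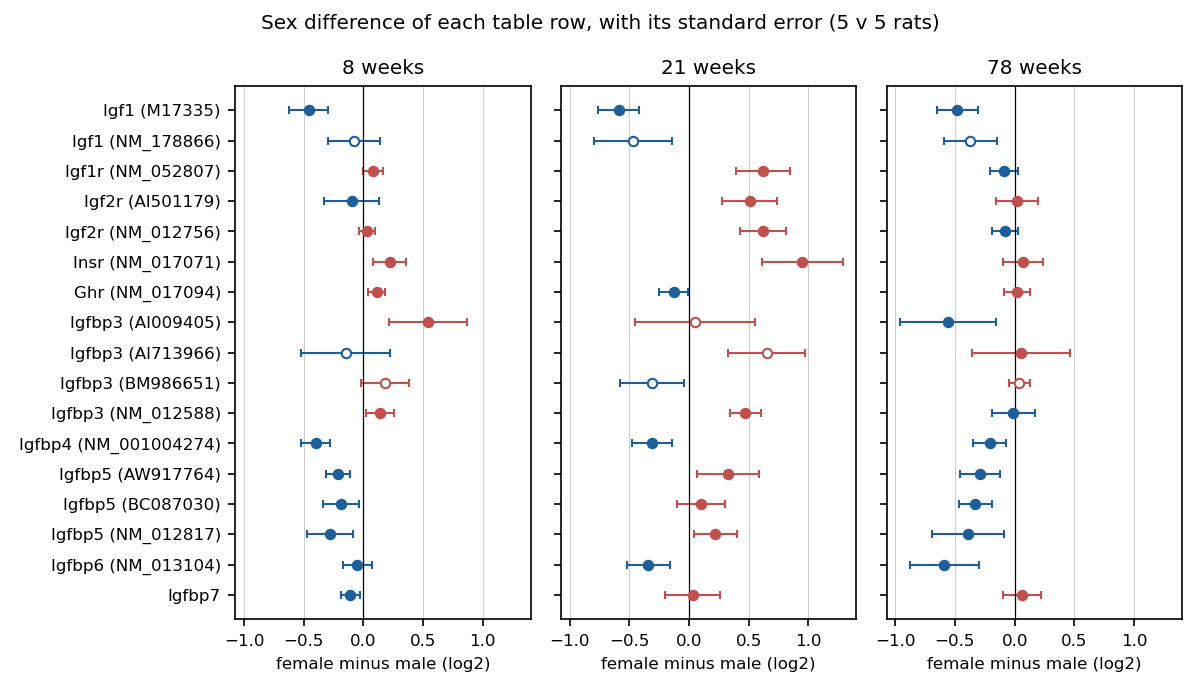
Difference of female minus male (x axis, log2, with SE, 5 rats per sex) of the 17 table rows of the axis (y axis) at 8, 21 and 78 weeks. Red points are higher in females, blue points higher in males and open points are rows well above background on fewer than 5 of the 10 arrays. The Igf1 row M17335 is to the left of 0 at all 3 ages, and no row passed the adjusted threshold.

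The genes Igf1r, Igf2r and Insr had higher mean signal in females at 21 weeks, with differences that did not pass in the tables and passed when probes were tested in the fit of all 6 groups. On the log2 scale used above, Igf1r, the signalling receptor of IGF1, read -0.88, -1.30, -1.03, -1.11 and -1.63 in females of 21 weeks and -1.26, -2.19, -1.78, -1.62 and -2.25 in males. Igf2r, the receptor that takes up IGF2 (lead probe chr1:42343711-42343770, plus strand), read 5.69, 5.21, 5.47, 5.71 and 5.64 in females and 5.39, 4.45, 5.00, 5.01 and 4.69 in males. Insr, the insulin receptor (chr12:3087143-3087201, plus strand), read -1.96, -2.58, -2.36, -2.70 and -2.88 in females and -2.97, -4.34, -2.92, -2.92 and -4.15 in males. Male replicates 2 and 5 were the lowest of their group in all 3 genes, and the groups overlapped in Igf1r and Igf2r. In Insr they did not overlap in these scanner values, as was so for 1.95% of all probes with females above, whereas they did in the table values, where female replicate 5 at -3.61 lay below males at -3.59 and -3.58.

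The table rows gave differences of 0.62 (SE 0.23) for Igf1r, 0.62 (SE 0.19) for Igf2r and 0.95 (SE 0.34) for Insr, with limma's adjusted p of 0.280, 0.274 and 0.280. With the spread shared over all 6 groups, the lead probes of Igf1r (limma's adjusted p = 0.0225), Igf2r (0.0104), Insr (0.0234) and Igfbp3 (0.0223) passed, 4 of 10 where 5.07% of all probes did. The SE in that fit was 0.15 for Igf1r, 0.13 for Igf2r and 0.24 for Insr. The groups differed in spread: the SD of these genes was 0.41, 0.36 and 0.72 in males of 21 weeks, against 0.13, 0.09 and 0.30 in males of 8 weeks. A shared spread thus understates that of the males of 21 weeks in these receptor genes. Several values moved with this comparison: the 75th percentile of signal on the male arrays of 21 weeks was 103, 39.9, 105, 65.6 and 72.1 (replicates 1 to 5), against 82.7 to 123 in females, and Insr was well above background on 2 of the 5 male arrays. With normexp background correction the Igf1r difference was -0.01 and the Insr difference -0.19, and with raw median signal the Insr difference was -0.03. Igf2r and Igfbp3 kept their direction under normexp with limma's adjusted p = 0.230 each, and with median scaling Igfbp3 was at 0.0596. The part of the weak arrays in the result was not tested. At 8 weeks the 3 rows differed by 0.08, 0.03 and 0.22, and at 78 weeks by -0.09, -0.08 and 0.07 (-0.04, -0.12 and 0.10 without the pair at odds with their labels). Whether the sex difference itself changed with age was tested by an interaction term, and 0 of 10 lead probes passed in any of the 3 contrasts of ages, where 0.0% to 0.00244% of all probes did. At an unadjusted p under 0.05 there were 5 of 10 between 21 and 8 weeks (17.3% of all probes), 5 between 78 and 21 weeks (13.5%) and 0 between 78 and 8 weeks (2.52%).

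Ghr, the growth hormone receptor, passed no test between the sexes. Its row averages 3 probes, and at 8 weeks it was -0.13 ± 0.09 in females and -0.24 ± 0.09 in males (log2 table value, SD, n = 5 each), a difference of 0.11 (SE 0.07). The lead probe read 2.40 to 2.67 in females of 21 weeks and 2.15, 3.22, 2.52, 2.46 and 3.32 in males. Replicates 2 and 5 of the males, lowest in the other receptor genes, were highest in this lead probe. This did not hold in the other Ghr probes. The probe at chr2:52424979-52425038 read 1.19, 0.97, 1.3, 1.01 and 1.26 in these males, with replicate 2 lowest. The probe at chr2:52426442-52426501 read -1.47, -1.21, -1.36, -1.35 and -2.03, with replicate 5 lowest.

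Among the binding proteins, Igfbp3, the main carrier of IGF1 in blood, had higher signal in females at 21 weeks. Its lead probe (chr14:87979639-87979698, minus strand) read 5.74, 5.62, 5.85, 5.90 and 5.52 in females and 5.28, 5.17, 5.22, 5.18 and 5.13 in males, and the second mRNA-strand probe, printed above, 4.29, 4.29, 4.33, 4.52 and 4.04 against 3.92, 3.74, 3.91, 3.75 and 3.74. The groups did not overlap in either probe, as was so for 1.95% of all probes with females above. The table row averages 10 spots of the second probe with 1 spot of the lead probe, so it mostly repeats the second. It differed by 0.47 (SE 0.13), or 1.39-fold, with limma's adjusted p = 0.265 and an exact permutation p of 0.00794. At that age 1.93% of all rows had every female above every male. At 8 weeks the row differed by 0.14 (SE 0.12) and at 78 weeks by -0.01 (SE 0.18), or -0.00 without the pair at odds with their labels. The opposite-strand probe AI009405 passed the background call in 4 of 5 females but 0 of 5 males at 21 weeks. Its mean signal at that age was nevertheless close, at -3.44 in females and -3.5 in males. The difference was 0.06 (SE 0.44, limma's adjusted p = 0.933). With an SE of this size, the values do not show whether the signal differed between the sexes. At 8 weeks the probe passed in 4 females and 2 males, and at 78 weeks in 2 females and 4 males.

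Igfbp4, a binding protein that holds IGF1 until a protease cuts it, had lower signal in females at 8 weeks by 0.40 on the log2 scale (table row, limma's adjusted p = 0.690, exact permutation p = 0.0159). Its probes differed in size. The probe at chr10:87843934-87843993 read -2.69, -2.75, -2.72, -2.55 and -2.77 in females of 8 weeks and -1.94, -2.55, -1.82, -2.43 and -2.25 in males, and its mean sex difference over the ages was -0.43 (SE 0.10, limma's adjusted p = 0.0350). That call was lost in 15 of the 30 reruns that left out 1 array, with raw median signal (limma's adjusted p = 0.0889) and with normexp (0.961). Without the pair at odds with their labels the mean was -0.47 (limma's adjusted p = 0.0172). The lead probe, at chr10:87848583-87848642, had a mean sex difference of -0.15 (SE 0.10, limma's adjusted p = 0.535).

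Igfbp6, which prefers IGF2, was lower in females at 78 weeks by 0.59 on the log2 scale in the table (SE 0.29, limma's adjusted p = 0.856, exact permutation p = 0.0238). The probe printed above read 2.84, 3.11, 2.74, 1.37 and 2.92 in females of 78 weeks and 3.20, 3.17, 3.06, 3.14 and 3.25 in males. Female replicate 4, at 1.37, was the lowest, and without this rat the difference was -0.26. The groups overlapped by the pair at odds with their labels. Without it the females ended at 2.92 and the males began at 3.14, and 2.45% of all probes had every female below every male. The difference was then -0.72 (SE 0.24, limma's adjusted p = 0.285, exact permutation p = 0.0286, the smallest that 4 against 4 allows), with the female at 1.37 still included. Igfbp5, which binds to matrix, was lower in females at that age in all 3 rows without passing, by -0.33 in BC087030 (SE 0.14), -0.29 in AW917764 (SE 0.17) and -0.39 in NM_012817 (SE 0.30), with limma's adjusted p = 0.856, 0.856 and 0.862. Without the pair these rows differed by -0.45, -0.41 and -0.72, with limma's adjusted p = 0.492, 0.596 and 0.561. Igfbp7, a related secreted protein with low affinity for IGF1, had rows of 6.27 ± 0.15 and 6.37 ± 0.05 at 8 weeks (SD, n = 5 females and 5 males), a difference of -0.11 (SE 0.08).

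**Figure D4:**
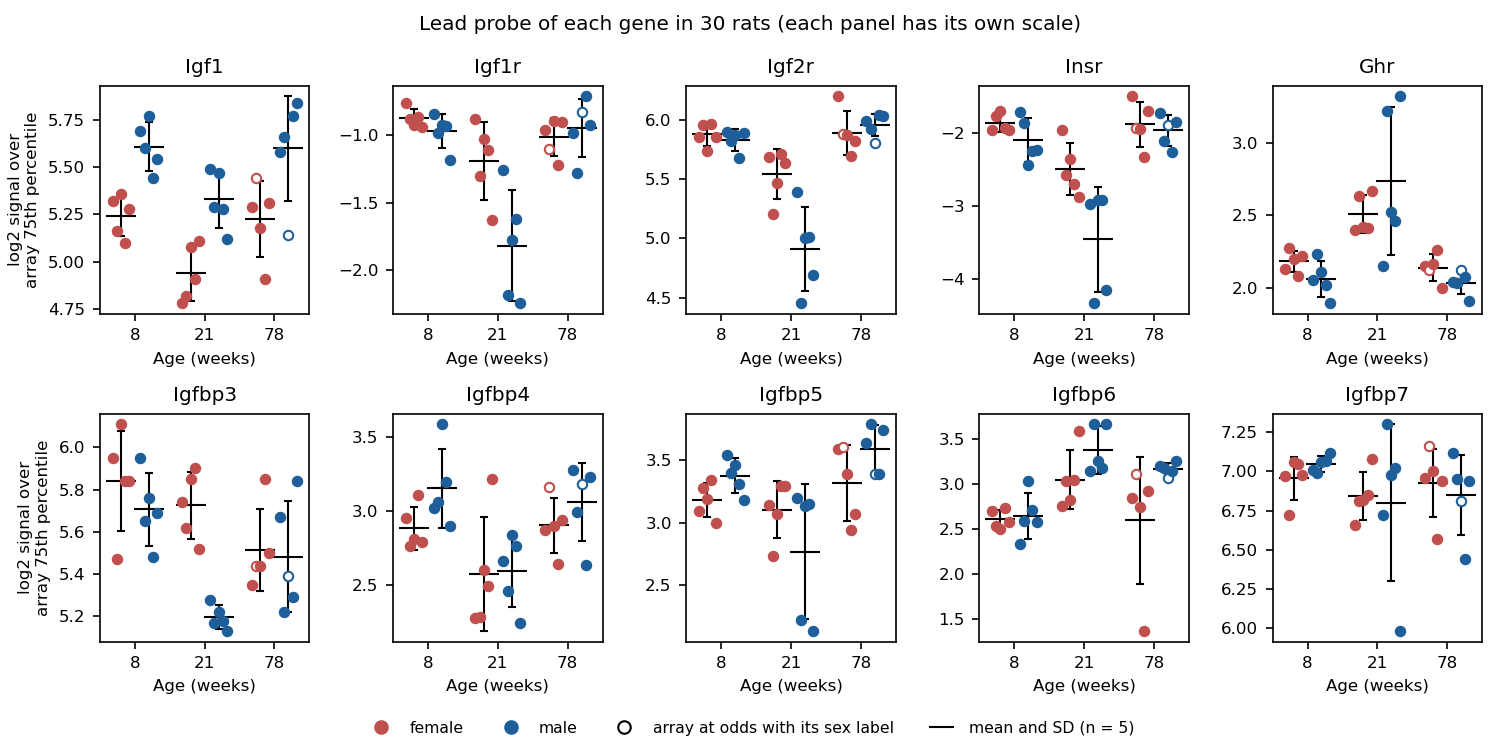
Log2 signal over the array's 75th percentile (y axis) of the lead probe of each of the 10 genes, by age and sex (x axis). Points are rats and bars the mean with SD of 5 rats. The Insr, Igf1r and Igf2r panels drop at 21 weeks, most in males, and the Igfbp6 panel shows the single low female of 78 weeks at 1.37.

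Between 8 and 78 weeks no lead probe of the axis passed the test. In the fit of all 30 arrays 0 of 10 passed by limma, where 8.87% of all probes did (4.79% higher and 4.08% lower at 78 weeks). At an unadjusted p under 0.05 there was 1. The median difference of the 10 was -0.03 beside 0.13 over all probes. Among probes well above background on at least 5 arrays of either age, 4590 of 21938 passed, with a median of 0.0014. Igf1 averaged 5.43 ± 0.22 at 8 weeks and 5.41 ± 0.30 at 78 weeks (SD, n = 10), Igf1r -0.92 ± 0.11 and -0.98 ± 0.17, Igf2r 5.86 ± 0.09 and 5.93 ± 0.14, and Ghr 2.12 ± 0.11 and 2.09 ± 0.10. Igfbp3 was nearest to the threshold, with a difference of -0.28 (SE 0.09, limma's adjusted p = 0.0584) in the lead probe, and its second bright probe passed at -0.36 (SE 0.10, limma's adjusted p = 0.0207), a call lost in each sex alone, with normexp (-0.69) and without the pair at odds with their labels (-0.34). On the slide that held both ages, with 1 rat of each sex per age, this second probe differed by -0.75 in the females and -0.00 in the males.

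At 21 weeks most of the axis had lower signal than at either other age. From 8 to 21 weeks 2 lead probes rose and 7 fell, where 53.6% of all probes passed, 39.0% rising and 14.6% falling. From 21 to 78 weeks 6 rose and 1 fell, where 29.9% of all probes passed, 13.2% rising and 16.7% falling. The medians of the 10 were -0.33 and 0.34, beside 0.28 and -0.17 over all probes. Those shares and medians include dim probes, and the lead probes are not dim. Among probes well above background on at least 5 arrays of either age, 12983 of 21787 passed from 8 to 21 weeks. Of these, 7178 rose and 5805 fell. From 21 to 78 weeks 12504 of 21359 passed, 5562 rising and 6942 falling. The medians of the probes so filtered were 0.06 and -0.05. Among the receptor genes Insr moved by -1.0 and then 1.05, Igf2r by -0.63 and 0.70 and Igf1r by -0.58 and 0.53. Insr was well above background on 2 of the 5 male arrays of 21 weeks, and with normexp its difference from 8 to 21 weeks was 0.07. The lead probe of Igf1 moved by -0.29 (SE 0.09) and 0.28 (SE 0.09), with limma's adjusted p = 0.00690 and 0.0146. The upstream Igf1 probe moved by -0.30 (SE 0.12) and 0.07 (SE 0.12), with limma's adjusted p = 0.0403 and 0.663. Its later rise was thus not called, and from 8 to 78 weeks it differed by -0.23 (limma's adjusted p = 0.229). Igfbp3, Igfbp4 and Igfbp5 fell by 0.31, 0.43 and 0.34 on the log2 scale to 21 weeks, and Igfbp4 and Igfbp5 rose by 0.40 and 0.52 after it.

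The other direction was taken by Ghr and Igfbp6, which rose to 21 weeks by 0.50 and 0.58. Ghr then fell by 0.54 on the log2 scale to 78 weeks. The other 2 Ghr probes differed from 8 to 21 weeks by 0.13 and 0.11 (limma's adjusted p = 0.138 and 0.482), so the 3 probes of this gene disagreed in size. From 21 to 78 weeks the same 2 differed by -0.23 and 0.12 (limma's adjusted p = 0.0161 and 0.475), so there the probes disagreed in direction too. In females alone 0 of the 10 lead probes passed in either comparison with 21 weeks, with Insr at -0.63 and Igf2r at -0.33 from 8 to 21 weeks, where 6.91% (to 21 weeks) and 8.64% (after it) of all probes passed. In males alone it was 8 and 6 of 10, where 52.2% and 30.8% of all probes passed. Normexp background correction left 1 call to 21 weeks and 0 after it. With median scaling the falls of Igf1 (-0.20), Igfbp3 (-0.22) and Igfbp5 (-0.25) to 21 weeks no longer passed. These comparisons hold the weak male arrays described above and the different batches of the ages.

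**Figure D5:**
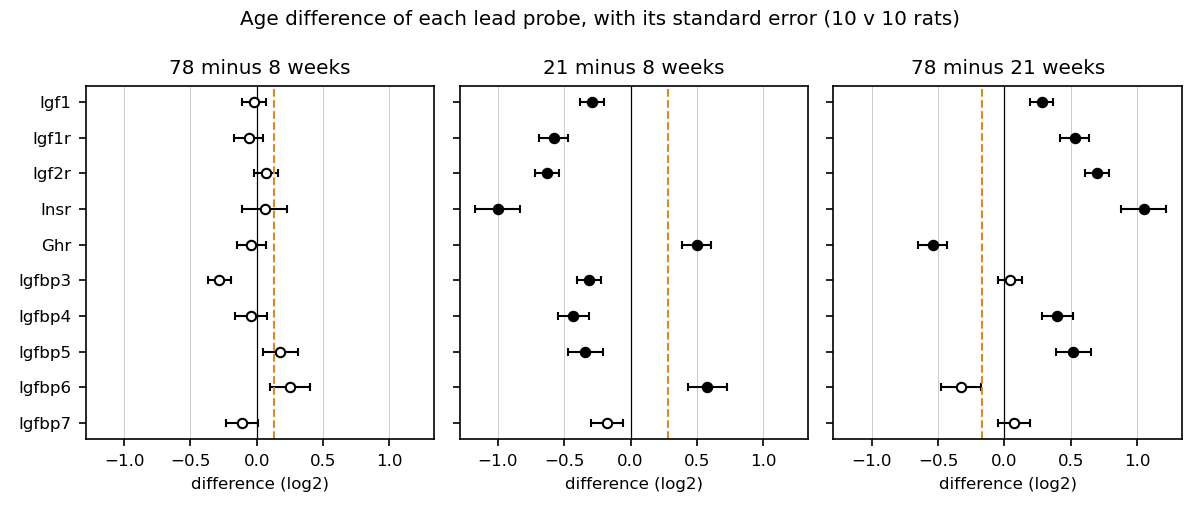
Difference between ages (x axis, log2, with SE, 30 arrays in 1 fit) of the lead probes of the 10 genes (y axis) for 78 minus 8, 21 minus 8 and 78 minus 21 weeks. Filled points passed the adjusted threshold and the dashed line is the median of all probes. No point is filled for 78 minus 8 weeks, while 9 and 7 are for the comparisons with 21 weeks.

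Beside the 10 genes, lists of other pathway genes held 5 of 46 with probes (10.9%) that passed between 8 and 78 weeks, a share near the 8.87% of all probes. With dim probes filtered out, 4590 of 21938 probes passed. Among 9 other ligands, binding proteins and receptors, 1 fell and 0 rose, and it was Igf2, the fetal growth factor of the family. Of these 9, only 3 were well above background on at least 15 arrays, and 3 (Igfbpl1, Insrr and Prlr) were so on none. Igf2 ranged from 4.23 to 4.68 at 8 weeks, from 3.94 to 4.25 at 21 weeks and from 3.28 to 4.22 at 78 weeks (n = 10 each). The difference between 8 and 78 weeks was -0.82 (SE 0.09, 1.77-fold lower), with limma's adjusted p = 2.3e-07. The genes named from these lists were chosen by the p of this same comparison, so a gap between their ranges is no separate evidence. Of 4 binding protein proteases and inhibitors with probes, 1 rose and 1 fell. Pappa, the protease that cuts Igfbp4, ranged from -2.32 to -1.55 at 8 weeks and from -1.32 to -0.44 at 78 weeks, a rise of 1.0 (SE 0.14, 1.99-fold, limma's adjusted p = 1.45e-05). Stc1, from the family of stanniocalcins that inhibit that protease, went from a mean of -0.69 ± 0.25 to -1.51 ± 0.24 (SD, n = 10), a difference of -0.82 (SE 0.16, limma's adjusted p = 0.000738) that no longer passed with normexp (-0.21) or in females alone (-0.56).

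Of 8 receptor adaptors with probes, 0 rose and 1 fell. It was Grb10, an adaptor that restrains both kinase receptors, with 1.67 to 2.02 at 8 weeks and 1.02 to 1.44 at 78 weeks, a difference of -0.68 (SE 0.08, limma's adjusted p = 7.88e-07). Of 7 genes of growth hormone signalling, 0 rose and 1 fell, the feedback inhibitor Socs2, by 0.34 on the log2 scale (SE 0.11, limma's adjusted p = 0.0394), a call lost in most of the reruns that left out 1 array and, with replicate number as a block, at an adjusted p of 0.0631. Of 18 genes of the PI3K, Akt and mTOR branch, 0 passed in either direction. The median over all probes was 0.13, and the medians of these lists were 0.28, -0.04, -0.08, -0.05 and -0.05. On the slide that held both ages Igf2 differed by -0.99 in the females and -0.79 in the males, Pappa by 1.54 and 0.66, Stc1 by -0.64 and -1.21, Grb10 by -0.70 and -0.81 and Socs2 by -0.43 and -0.27. That slide shares hybridisation and scan between the ages, and the earlier steps of the batches cannot be told apart from age. Of the 7 fibroblast markers 2 fell and 0 rose over the same ages (median -0.19), and 4 of 4 cell division markers fell (median -1.15). Their part in these differences was not tested.

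The genes whose signal followed Igf1 most closely over the 30 arrays, among 9275 genes well above background on all of them, were Cyp1b1 (r = 0.79), Spon1 (0.75), Col8a1 (0.74), Matn2 (0.73) and Ccdc80 (0.73). After the group means were subtracted r was 0.69, 0.65, 0.68, 0.62 and 0.69. These r are with the lead probe, and the upstream Igf1 probe itself reached 0.77 with it and 0.53 after the group means were subtracted. The 30 points share arrays, scaling and labelled sample, and these values are a description across arrays with no test.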

How the data were processed

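Total RNA of 30 hearts was hybridised to Agilent 1-colour rat arrays, 1 per rat. The authors deposited scanner files with processed signal intensity per spot and 3 tables, 1 per age, of intensity over the 75th percentile of the array; Agilent Feature Extraction is the tool the submitters name. The scale of the tables lay 0.66 to 0.82 log2 units above the 75th percentile of non-control spots, so log2 table values are lower than log2 scanner values by that amount. Of the table rows, 98.3% to 98.4% were matched to probes within 0.002 log2 units. Array signal over background limits the precision, and no read depth applies. The deposited flag column marks spots well above background.

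Sex differences were tested on log2 table values, 5 females against 5 males per age, by limma 3.58.1 in R 4.3.3 with Benjamini-Hochberg adjustment over all rows. The table columns of males at 21 weeks name only the group. Ages, and single probes, were tested in 1 fit of 6 groups on log2 processed signal minus the array's 75th percentile, with spots of a probe averaged, over 41012 probes. The threshold was an adjusted p of 0.05. Single values were also tested by exact permutation over rats. The script was checked on simulated data with 200 changed genes. Genes beside the members were named by rule: up to 4 per list and direction by the smallest p between 78 and 8 weeks, well above background on at least 15 arrays. Irs2 was named after its values were seen. Members and lists were chosen with earlier results of these data known. Alternatives were other row rules, the methods' test, quantile, median and normexp (offset 50) settings, raw signal, dim probe filter, slide and replicate blocks, sexes alone, and arrays left out.

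Whether equal replicate numbers pair the rats was checked from deviations from the group means. Correlations were -0.21 to 0.19 at 8 weeks, -0.15 to 0.56 at 21 weeks and 0.14 to 0.30 at 78 weeks, where all 5 pairs exceeded 0.1, and rats of equal number at one age share a slide.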

Additional observations from a re-analysis of the deposited data

Results flagged for a closer look

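Over 66 groups of 5 rats tested by probe, 3 values stood apart from the rest of their group by Dixon's ratio above 0.71, and chance alone gives about 1 in 20 groups. Igfbp6 in female replicate 4 of 78 weeks was at 1.37, with the next rat at 2.74 (ratio 0.79). Igfbp7 in female replicate 2 of 8 weeks was at 6.72, with the next at 6.97 (ratio 0.75). The upstream Igf1 probe in the same female replicate 2 of 8 weeks was at 0.70, with the next at 1.29 (ratio 0.73).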

How the results depend on the processing

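The number of calls among the 17 rows moved from 0 to 3, 5 and 2 at 8, 21 and 78 weeks under the methods' t-test without adjustment. Over all rows that test called 1780 of 27408, 4361 of 27383 and 1547 of 26553. At 21 weeks the number moved to 5 with all 30 arrays in 1 fit, where 2024 of 26933 rows passed. It was 4 for the 10 lead probes in the fit of 6 groups, where 5.07% of all probes passed. Leaving out 1 replicate gave 0 to 0 at each age. From 8 to 78 weeks the count of 0 lead probes became 1 with median scaling, with the filter on dim probes and with slide as a random block, and 0 to 2 when 1 replicate was left out (2 without female replicate 4 of 78 weeks, 1 without female replicate 2 or male replicate 4 of 8 weeks or male replicate 5 of 78 weeks). From 8 to 21 weeks the count of 9 became 1 with normexp and 0 in females only, with 8 to 9 when 1 replicate was left out. From 21 to 78 weeks the count of 7 became 0 with normexp and 0 in females only, with 7 to 7 when 1 replicate was left out. The interaction count of 0 became 2 without male replicate 1 of 21 weeks and was 0 to 2 over all such reruns. The cause of these moves was not tested. The mean sex difference of Igf1 was -0.29 with normexp (limma's adjusted p = 0.961) and -0.33 with median scaling (0.0912) in the lead probe, and -0.37 (0.961) and -0.45 (0.0975) in the upstream probe. It ranged from -0.41 to -0.35 and from -0.53 to -0.45 when 1 replicate was left out. The direction turned in Igf1r at 21 weeks (-0.01 with normexp), Insr at 21 weeks (-0.03 with raw median signal and -0.19 with normexp) and Insr from 8 to 21 weeks (0.07 with normexp).

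With replicate number as a block the counts stayed at 0 for the sexes at each age, 0 from 8 to 78 weeks, 9 from 8 to 21 weeks, 7 from 21 to 78 weeks and 0 for the interaction, and the Igf1 means were -0.37 (limma's adjusted p = 0.0231) and -0.49 (0.0300). The 21-week calls of Igf1r (limma's adjusted p = 0.0148), Igf2r (0.0107), Insr (0.0207) and Igfbp3 (0.0257) and the mean sex difference of Igfbp4 (0.0436) passed with the block too, whereas Socs2 was lost. The mean sex difference, the table values without the odd pair of 78 weeks and the single-probe tests were added after the data were seen.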

Other observations

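Irs2, a docking protein of the insulin and IGF1 receptors, was singled out after its values were seen. Hearts of 8 weeks averaged 0.70 ± 0.16 (female) and 0.55 ± 0.13 (male), those of 21 weeks 0.32 ± 0.24 and -0.62 ± 0.26, and those of 78 weeks 0.74 ± 0.39 and 0.31 ± 0.30 (log2 over the 75th percentile, SD, n = 5). At 21 weeks the females ranged from 0.10 to 0.70 and the males from -0.92 to -0.31, without overlap, as was so for 1.95% of all probes with females above. The difference at 21 weeks was 0.94 (SE 0.17, limma's adjusted p = 0.00539, where 5.07% of all probes passed), and the mean over the 3 ages was 0.51 (SE 0.10, limma's adjusted p = 0.0112, where 0.449% did). With normexp neither passed (limma's adjusted p = 0.230 and 0.961). Without the pair at odds with their labels the mean over the ages was 0.60 (limma's adjusted p = 6.48e-05). Of 8 receptor adaptors with probes it was the 1 that passed for the mean sex difference. Its signal also fell by 0.78 on the log2 scale from 8 to 21 weeks and rose by 0.67 from 21 to 78 weeks, as did most receptor genes of the axis, and the ages were in different batches.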
